A study of Mus musculus with 6 samples.

Results

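The regions described here carried H3K4me3 (trimethylation of lysine 4 of histone H3) far from the start sites in the authors' annotation in mouse prospermatogonia, the germ cells of the fetal testis. They are the intervals of the H3K4me3 replicate 1 list that the authors' annotation classed as intergenic, whose distance to the nearest transcription start site (TSS) exceeded 10000 bp, and whose size was under 3000 bp, on chromosomes 1 to 19, X and Y. Of the 64891 regions in that list, 27340 were intergenic and 19974 of these passed the distance rule. After 13 were dropped for size and 10 for their sequence name, 19951 distal intergenic regions remained, which is 30.7% of the list. They were set beside 7032 distal intronic regions, chosen by the same distance and size, and 13156 promoter regions of the class promoter-TSS under 3000 bp.

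The libraries came from CUT&RUN, in which an antibody directs a nuclease to release the DNA around its target for sequencing. All 6 libraries were from sorted male prospermatogonia at E16.5 (the embryonic day), labelled C57BL/6 and Taf4b-wildtype, from matings of mice homozygous for an Oct4-EGFP reporter (B6;129S4-Pou5f1tm2Jae/J), and no library lacked TAF4b. The groups were H3K4me3, TAF4b and IgG, with 2 replicates each, and the 2 IgG libraries were not analysed here. The labels do not say whether replicates came from separate litters or sorts, so differences between them may be technical, and any p-value measures only the spread between these libraries.

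H3K4me3 is deposited by SET1 and MLL methyltransferases, is strongest at active promoters rich in CpG dinucleotides, and is bound by TFIID through its subunit TAF3. Away from known promoters it has been found at unannotated transcript starts, at some enhancers and over some retroviral repeats, and in meiotic cells PRDM9 places it at recombination hotspots. TAF4b is a variant of the TFIID subunit TAF4 that is enriched in gonads and needed for long-term maintenance of male germ cells.

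Deposited scores were the authors' values with a scale that the sources used here do not give, and depth was unknown. In H3K4me3 replicate 1 scores rose in steps of 1.49, so the lowest score of 16.4 was 11 steps and the median of the distal intergenic regions was 25 steps. The other lists were much shorter, with 7852 TAF4b replicate 1 peaks, 836 TAF4b replicate 2 peaks and 1726 H3K4me3 replicate 2 regions on these chromosomes. A score from sorted cells cannot tell a mark in more of the cells from more signal in each cell. Overlap means at least 1 shared bp, and intervals in brackets are 95% Wilson intervals that cover counting error only.

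TAF4b replicate 1 peaks inside the distal intergenic regions fell partly into groups that shared sequence. Peaks were joined when they shared a word of 20 bases on either strand, and 5 groups of at least 10 peaks formed, with 70, 38, 24, 22 and 22 peaks. The highest-scoring peak with a CCAAT match is shown first for groups 1, 2, 4 and 5, with CCAAT or its reverse complement ATTGG in capitals, because this motif recurred in every group. In group 5 a peak near Gm10780 tied with the printed one at a score of 18.4. The group number and the nearest gene name each peak, and all sequences are from GRCm39, plus strand, at chr1:102184131-102184273, chr9:100857641-100857783, chr14:104047978-104048120 and chr2:39504328-39504470.
Group 1, near Gm28623: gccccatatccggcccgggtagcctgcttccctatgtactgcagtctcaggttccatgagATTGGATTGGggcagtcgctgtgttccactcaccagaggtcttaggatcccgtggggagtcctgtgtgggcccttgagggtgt
Group 2, near Pccb: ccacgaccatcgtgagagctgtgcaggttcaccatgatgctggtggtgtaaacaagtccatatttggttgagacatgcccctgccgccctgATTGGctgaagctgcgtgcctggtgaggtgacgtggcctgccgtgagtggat
Group 4, near Ednrb: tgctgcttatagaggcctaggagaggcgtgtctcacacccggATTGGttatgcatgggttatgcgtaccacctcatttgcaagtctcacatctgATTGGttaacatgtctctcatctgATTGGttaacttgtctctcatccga
Group 5, near Gm13452: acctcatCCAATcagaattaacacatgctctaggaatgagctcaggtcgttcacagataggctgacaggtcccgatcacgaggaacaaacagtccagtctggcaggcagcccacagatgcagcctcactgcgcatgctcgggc

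A second set shows replicate 1 peaks in regions that held a TAF4b peak in both replicates, chosen because they differ in base composition and motif. They lie at chr15:85518759-85518901, chr4:8647488-8647630, chr12:85502169-85502311 and chr5:111792017-111792159. Here the GC box GGGCGG and its reverse complement CCGCCC are in capitals as well.
Lncppara: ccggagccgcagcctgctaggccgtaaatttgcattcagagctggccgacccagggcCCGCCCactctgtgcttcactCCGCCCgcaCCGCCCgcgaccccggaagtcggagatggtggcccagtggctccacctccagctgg
Gm11809: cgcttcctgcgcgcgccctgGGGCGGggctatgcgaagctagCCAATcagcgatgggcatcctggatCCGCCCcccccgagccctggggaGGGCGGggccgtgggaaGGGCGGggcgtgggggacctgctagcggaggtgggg
Fos: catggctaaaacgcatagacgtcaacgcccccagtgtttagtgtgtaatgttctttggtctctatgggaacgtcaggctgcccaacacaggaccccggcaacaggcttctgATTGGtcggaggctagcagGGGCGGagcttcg
Gm42489: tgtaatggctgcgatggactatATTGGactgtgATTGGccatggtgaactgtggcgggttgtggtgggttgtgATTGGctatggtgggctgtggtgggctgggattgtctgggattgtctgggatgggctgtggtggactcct

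Distal intergenic regions were narrow and of low score. Their median size was 651 bp (quartiles 500 and 921, highest 2933), and 36.6% were exactly 500 bp, the smallest size in the list. Only 3975 regions (19.9%) exceeded 1000 bp and 176 exceeded 2000 bp. The median score was 37.3 (quartiles 26.8 and 56.6, range 16.4 to 605.2), against 76 for promoter regions. Distal intronic regions had the same median score of 37.3 and a median size of 646 bp, while promoter regions had a median size of 1178 bp. Score followed size, with a Spearman correlation of 0.874 over the 19951 regions, which share 1 library. Per kb of region, the median score was 53.6 in both distal classes and 62.3 at promoters. Within the higher-scoring 50% of the list the distal intergenic medians were 65.6 for score and 1012 bp for size.

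**Figure D1:**
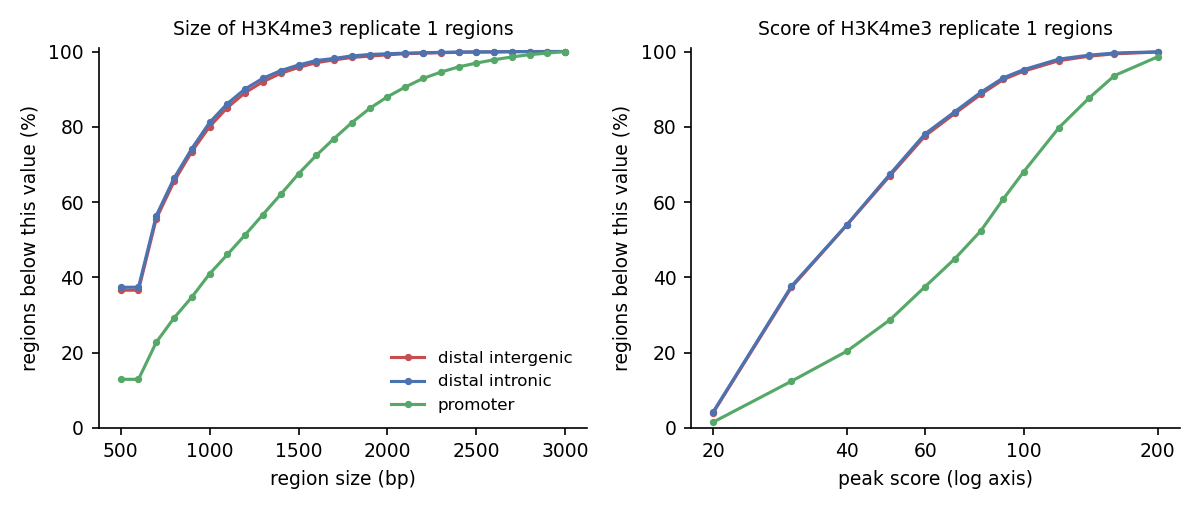
Cumulative share of H3K4me3 replicate 1 regions (vertical axis, percent) below a given size in bp (left) or peak score on a log axis (right), for distal intergenic, distal intronic and promoter regions. The curves of the 2 distal classes lie almost on each other, and the promoter curve is shifted to larger sizes and scores (median sizes of 651, 646 and 1178 bp).

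The rule's thresholds cut through a continuum. The members closest to the distance threshold, near Gm22808 (10003 bp, score 59.6) and Gm7695 (10004 bp, score 29.8), faced regions near Plaat1 (score 20.9) and Gm5909 (score 37.3) at exactly 10000 bp that were left out. The widest members, near Chst11 (2933 bp, score 155) and Zfp992 (2931 bp, score 605.2), were close in size to the excluded regions near Dmrta2 (3032 bp, score 137.1) and Mir148a (3044 bp, score 169.9).

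Base composition set the distal intergenic regions apart from promoters. Their median GC content was 49.3%, against 49.5% in distal intronic and 55.1% in promoter regions. A region held a median of 13 CpG dinucleotides, against 50 at promoters. The observed to expected CpG ratio had a median of 0.318, against 0.334 in distal intronic and 0.581 in promoter regions. A ratio over 0.6, a usual mark of CpG islands, was reached by 2.95% of distal intergenic, 2.89% of distal intronic and 46.4% of promoter regions. Over all H3K4me3 replicate 1 regions it was 17.0%. The 589 regions above 0.6 had a median score of 32.8, against 37.3 for the rest, and 28.5% of them were repeated sequence as defined in the next paragraph, against 12.2%. Over all 19951 regions score and CpG ratio had a weak positive Spearman correlation of 0.117.

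Some of these regions lay in sequence that recurs in the genome. A region was called repeated when over 50% of its 32-base words occurred more than once in GRCm39 on either strand. This held for 12.7% of distal intergenic regions (12.3 to 13.2), 9.22% of distal intronic regions and 2.01% of promoter regions. Repeated regions had a median score of 29.8, against 38.8 for the others. How reads with several matches were placed is not given in the sources used here, and its part in these scores was not tested.

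The highest-scoring regions included several of this kind. The highest score of all, 605.2, belonged to a region at chr4:146420757-146423688, 111.258 kb from Zfp992, a zinc finger gene, and 53.5% of its words were repeated. The second, at 560.5, lay at chr4:147484994-147487023 near the pseudogene Gm8178, with 69.6% of words repeated. Another region near Zfp992 scored 336.9, with 73.0% repeated, and those near Gm2654 (314.5) and Gm11835 (220.6) had 52.5% and 58.9%. So 5 of the top 10 were repeated by this measure, against 12.7% of all distal intergenic and 7.39% of all H3K4me3 replicate 1 regions. The 2 near Zfp992 are neighbours, the second being at chr4:146416546-146419103. Among the highest of 10 score groups of distal intergenic regions the share was 6.27%, so the top 10 do not stand for high scores in general.

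The other 5 of the top 10 were largely unique sequence. The region near Abt1, which encodes an activator of basal transcription, scored 381.6 at chr13:23594887-23597207, 11.989 kb from the start site. Its neighbour near the pseudogene Gm11334, at chr13:23585487-23587155, scored 295.1 and was the only region of the top 10 with both a TAF4b replicate 1 peak (score 22.8) and an H3K4me3 replicate 2 region (score 131.4). Regions near Gm49436 (257.9), Dnah14, a dynein heavy chain gene (244.5), and Plet1 (241.5) had none of the other lists' intervals. The region near Gm49436 overlapped the start of Gm63100, a long noncoding RNA (lncRNA) gene of GENCODE M39.

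Chromosomes carried these regions at unequal density. Over the 19 autosomes the density was 7.90 per Mb, from 4.78 on chromosome 7 to 9.43 on chromosome 10. Chromosomes 7 and 11 were the only autosomes with more promoter than distal intergenic regions per Mb (7.29 and 7.90 promoter regions per Mb). The share of an autosome's regions that were distal intergenic ran from 18.5% on chromosome 7 to 37.5% on chromosome 1. The X chromosome had 487, or 2.87 per Mb, which is 0.364 of the autosomal density, and promoter regions stood at 0.445 of theirs. Median score was 26.8 on X, against 35.8 to 43.2 on the autosomes. Male cells hold 1 X, so copy number and signal per copy cannot be told apart here. The Y chromosome had 6 of its 15 regions.

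**Figure D2:**
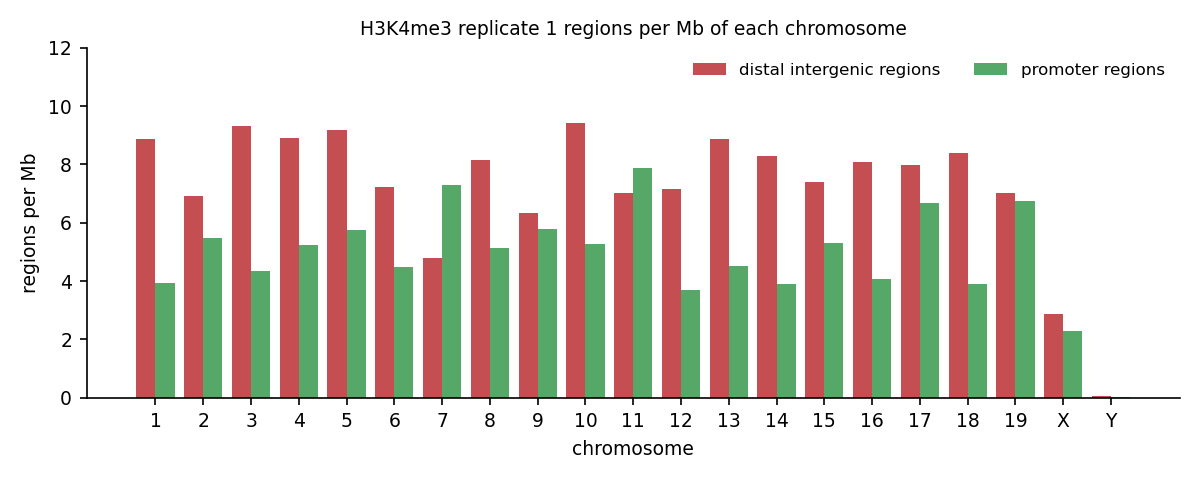
Number of H3K4me3 replicate 1 regions per Mb (vertical axis) on each mouse chromosome (horizontal axis), with 1 bar for distal intergenic and 1 for promoter regions. Distal intergenic bars run from 4.78 (chromosome 7) to 9.43 (chromosome 10) on the autosomes and drop to 2.87 on X, and the Y bars are close to 0.

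Along chromosomes the regions were spread widely, with local runs. In 2713 bins of 1 Mb, the median was 6 regions and the highest 39, and 91 bins held 20 or more, while 282 held none, 88 of them on Y and 36 on X. The median gap to another distal intergenic region was 17.8 kb, and 34.4% had one within 10 kb. This share depends on the gap and on the score, and was 18.5% within 5 kb, 76.8% within 50 kb and 21.0% within 10 kb in the higher-scoring 50% of the list. The same share was 25.3% among distal intronic and 22.1% among promoter regions, which are fewer. The median gap to the nearest promoter region was 137 kb. Joining regions at gaps of up to 10 kb left 13088 alone and gave 2920 chains, of which 70 had at least 5 regions.

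Longer chains held regions of higher score. The median score was 35.8 for regions standing alone, 38.8 in pairs and 46.2 in chains of at least 5. The share within 1 kb of a GENCODE M39 start site went from 11.01% alone to 20.7% in those chains (12.4% of all distal intergenic regions and 42.7% of all H3K4me3 replicate 1 regions). TAF4b replicate 1 overlap was 2.25% (2.01 to 2.51) alone and 2.74% (1.54 to 4.84) in chains of at least 5, with overlapping intervals (2.26% of all distal intergenic regions and 9.61% of all H3K4me3 replicate 1 regions).

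The longest chain had 12 regions over 64.6 kb at chr13:21399298-21463852, with Gpx5, which encodes an epididymal glutathione peroxidase, and Trim27 as nearest genes. Its scores ran from 20.9 to 129.7 with a median of 44.8. A chain of 9 at chr2:170019251-170063575 lay near Gm14270 and Zfp217, a zinc finger gene (scores 20.9 to 67.1). Chromosome 18 had 2 chains of 8 (median scores 49.2 and 38.8). Of 6 chains of 7, the one with the highest summed score lay upstream of Plet1 at chr9:50342368-50378062, with a median score of 71.5 that this pick favours.

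The median distance to the deposited TSS was 33.2 kb (quartiles 18.4 and 67.5, highest 739 kb), and 53.5% of the regions lay upstream. Between 10 and 20 kb there were 5688 regions with a median score of 40.2, and beyond 200 kb there were 706 with a median of 31.3. The Spearman correlation of score with distance was -0.100 over the 19951 regions. Score and CpG ratio both fell with distance, since the median CpG ratio went from 0.337 in the nearest of these bins to 0.235 in the farthest.

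Nearest genes were often not protein-coding. A processed pseudogene was nearest for 30.3% of distal intergenic regions, a protein-coding gene for 28.5% and an lncRNA gene for 22.5%. Over all H3K4me3 replicate 1 regions, 52.3% had a protein-coding gene nearest. Deposited transcripts could be named for 98.3% of the regions, and they gave 9582 genes, of which 4986 had 1 region and 55 had at least 10. Among protein-coding genes named in the list, 3235 of 16105 (20.1%) had at least 1 distal intergenic region.

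Genes with most regions were mainly pseudogenes and small RNA genes. Gm22223, a snoRNA gene on chromosome 8, had 16, with a median score of 29.8 and distances of up to 465 kb. The pseudogenes Gm11923 and Gm4854 and the unclassified gene Gm37604 had 15 each, and the pseudogene Gm49049 had 14. Gm23272, 9330185C12Rik and Gm19028 had 13 each. The only protein-coding genes in the top 10 were Zfp804a and Tfap2c, with 13 each. Those of Zfp804a were all upstream and reached 477 kb, with a median score of 35.8.

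Tfap2c encodes AP-2 gamma, a transcription factor required for primordial germ cells. Its 13 distal intergenic regions were all downstream, between 15.8 and 187 kb from the start, with scores of 20.9 to 116.3 and a median of 59.6. The nearest 2 scored 20.9 and 38.8. A run of 5 followed between 55.8 and 75.3 kb, scoring 116.3, 62.6, 20.9, 31.3 and 71.5. The next 2, at 108 and 111 kb, scored 83.5 and 59.6, and the last 4, at 176 to 187 kb, scored 68.6, 23.8, 20.9 and 77.5. The stretches between these runs had no listed region with Tfap2c as nearest gene.

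None of the 13 held a TAF4b peak of either replicate or an H3K4me3 replicate 2 region. Over all distal intergenic regions these shares were 2.26%, 0.105% and 0.381%, and over all H3K4me3 replicate 1 regions 9.61%, 1.16% and 2.60%, so 13 regions are too few to read anything from it. At most 8.72% of the words of any of the 13 were repeated. In the M39 annotation 3 of them lay within 1 kb of an lncRNA start, at Gm74559 (2 regions) and Gm75646, where the share was 12.4% over all distal intergenic and 42.7% over all H3K4me3 replicate 1 regions. Of the regions close to the gene, those at the promoter scored 181.9 and 68.6, and an intergenic region 2.67 kb upstream scored 269.8. Only that upstream region overlapped H3K4me3 replicate 2, and the promoter regions held no TAF4b peak.

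**Figure D3:**
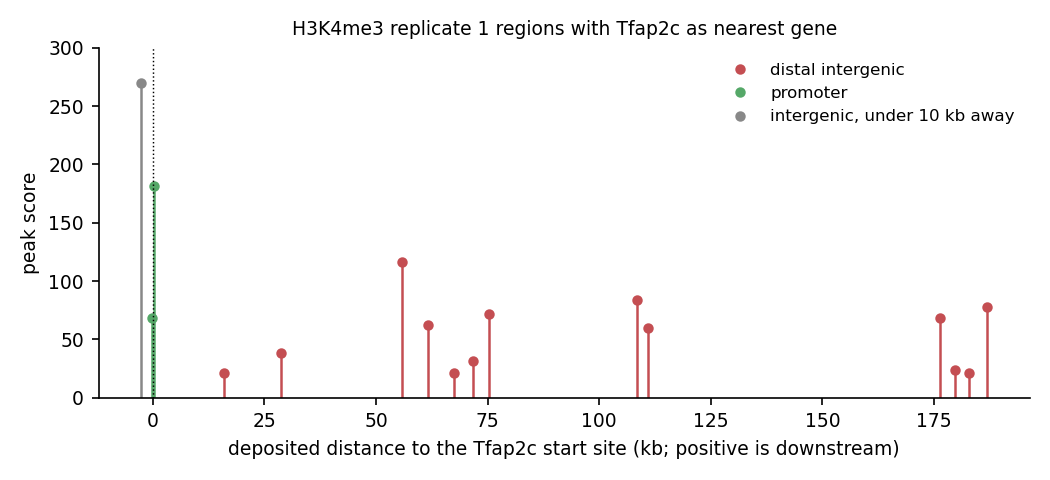
Peak score (vertical axis) of each H3K4me3 replicate 1 region that has Tfap2c as nearest gene, against its deposited distance to the start site in kb (horizontal axis, positive downstream), with 1 line and point per region. The 13 distal intergenic regions all stand downstream in separate runs at 15.8 to 187 kb, with scores up to 116.3, below the highest 2 near the start (269.8 and 181.9).

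A list of germ cell genes and a list of somatic genes of the fetal testis were then looked up. Of 31 germ cell genes named in the H3K4me3 list, 10 had a distal intergenic region nearest (26 regions), and of 28 somatic genes, 9 had one (21 regions). These counts were 32.3% and 32.1%, against 20.1% of all protein-coding genes, so the germ cell list did not stand above the somatic list. Promoter regions were listed for 19 germ cell and 16 somatic genes, against 58.6% of all protein-coding genes. Listed H3K4me3 at somatic genes may come from germ cells or from other cells in the sort, and the part of other cells was not tested.

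Among germ cell genes after Tfap2c, Piwil1, a PIWI protein gene of the piRNA pathway, had 3 regions, all upstream at 18.1 to 45.9 kb, with scores of 22.4 to 77.5. Prdm1, a repressor needed to specify primordial germ cells, had 2 upstream at 10.3 and 12.9 kb, scoring from 20.9 to 98.4. Etv5, a factor for spermatogonial stem cell renewal, had 2 (38.8 and 44.7). Prdm14, which keeps the germline pluripotency program, had no promoter region in the list but 1 region 22.8 kb downstream that scored 119.2 and lay within 1 kb of an M39 start. Among somatic genes, Gata6 had 6, from 127 to 296 kb downstream, with scores up to 122.2. Tcf21, a factor of testis interstitial cells, had 4 upstream, the highest at 172.9, and Lhx9, Wt1 and Adgre1 had 2 each. No region of either list overlapped a TAF4b peak of either replicate or an H3K4me3 replicate 2 region, and with so few regions at the shares given above nothing can be read from that.

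Of gene families recognised by symbol, olfactory receptor genes were nearest to 92 distal intergenic regions (0.461%, against 0.763% of all regions), vomeronasal receptor genes to 49 (0.246%, against 0.282%) and Zfp genes to 125 (0.627%, against 1.09%). Zfp members had a median score of 44.7 and 8 of the 125 held a TAF4b replicate 1 peak, where the share was 2.26% over all distal intergenic regions and 9.61% over all H3K4me3 replicate 1 regions. Olfactory and vomeronasal receptor genes had 2 and 1 such regions. Hox genes were nearest to 3 (0.0150%, against 0.125% of all regions).

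Start sites of the newer GENCODE M39 annotation fell near a minority of the regions. Within 1 kb lay 2472 (12.4%, 11.9 to 12.9), against a background of 42.7% of all H3K4me3 replicate 1 regions and 8.50% of distal intronic regions. Nearly all of these starts, 96.8%, belonged to lncRNA genes, and 32 to protein-coding genes. The share rose with score, from 6.68% in the lowest of 10 score groups of similar number to 25.0% in the highest. Regions near an M39 start had a median score of 50.7, against 35.8 without one. They overlapped TAF4b replicate 1 in 3.52% of cases (2.86 to 4.32), against 2.08% (1.88 to 2.305), and H3K4me3 replicate 2 in 1.01%, against 0.292%. Over all H3K4me3 replicate 1 regions these overlaps were higher, at 9.61% and 2.60%. So 87.6% of the regions lay over 1 kb from any M39 start. Repeated sequence went the other way with score, from 19.7% in the lowest group to 6.27% in the highest.

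**Figure D4:**
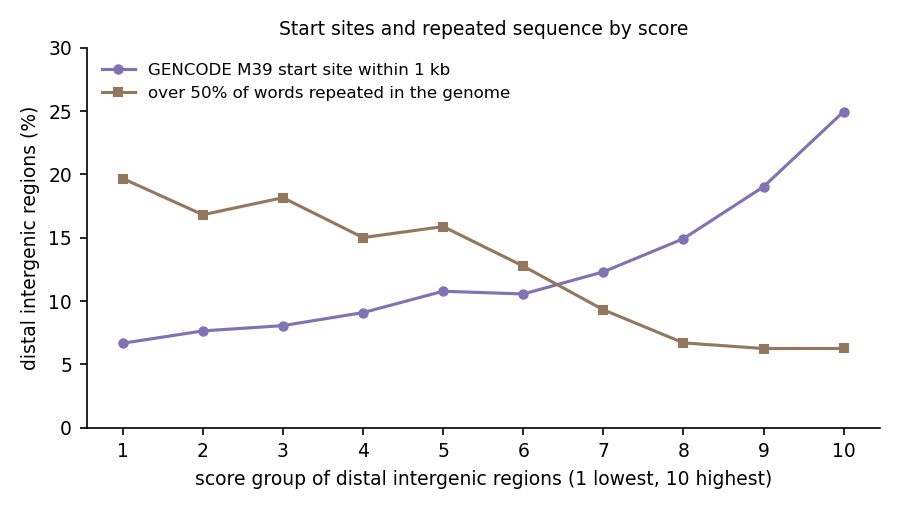
Share of distal intergenic H3K4me3 regions (vertical axis, percent) within 1 kb of a GENCODE M39 start site, and share with over 50% of their words repeated in the genome, in 10 groups of the regions by score from lowest to highest (horizontal axis). The first climbs from 6.68% to 25.0% and the second falls from 19.7% to 6.27%.

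TAF4b peaks were rare in the distal intergenic regions. A TAF4b replicate 1 peak overlapped 451 (2.26%, 2.06 to 2.48), against a background of 9.61% of all H3K4me3 replicate 1 regions. Distal intronic regions had nearly the same share, 2.32% (1.99 to 2.70), and promoter regions had 29.3% (28.6 to 30.1). TAF4b replicate 2 overlapped 21 regions (0.105%, 0.0689 to 0.161), against a background of 1.16%, and 15 regions had a peak in both replicates, against a background of 0.962%. At promoters the replicate 2 share was 4.29%. The order of the classes was thus the same in both TAF4b lists for promoters against each distal class.

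Scores differ between the classes, so shares were also compared within bands of score. Between scores of 80 and 120, 5.53% of distal intergenic regions (4.56 to 6.69), 5.31% of distal intronic regions (3.81 to 7.37) and 38.5% of promoter regions (36.9 to 40.1) held a TAF4b replicate 1 peak. Between 20 and 30 the shares were 0.843%, 0.936% and 8.11%. The promoter share was above both distal shares in each of the 5 bands, and the intervals of the 2 distal classes overlapped in each. Within the distal intergenic regions the share rose from 0.430% in the lowest of the 10 score groups to 5.92% in the highest. Size rises with score, which gives a larger target, and its part was not tested.

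**Figure D5:**
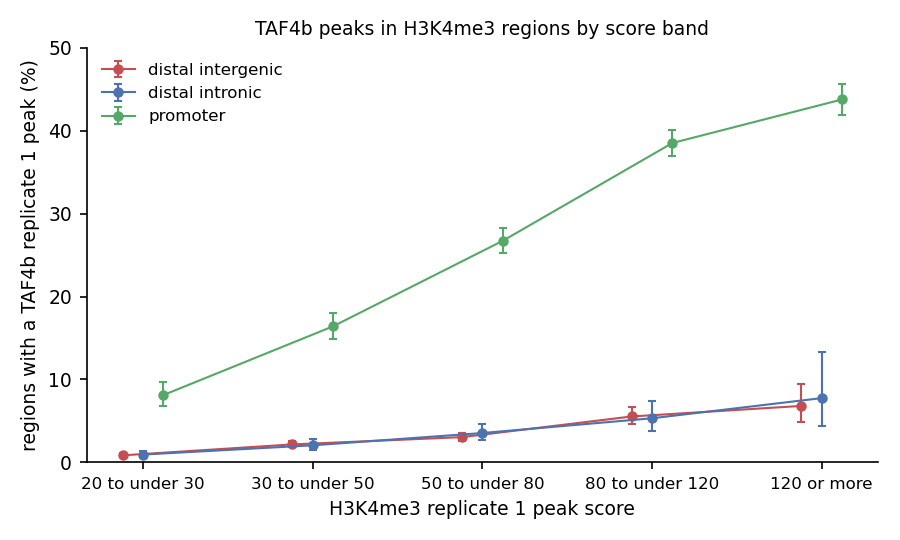
Share of H3K4me3 replicate 1 regions that overlap a TAF4b replicate 1 peak (vertical axis, percent) in 5 bands of H3K4me3 peak score (horizontal axis), for distal intergenic, distal intronic and promoter regions, with bars for the 95% Wilson interval. Promoters lie above both distal classes in every band (38.5% against 5.53% and 5.31% at scores of 80 to 120), and the distal classes overlap each other.

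Seen from the TAF4b lists, most intergenic peaks far from genes sat in these regions. Of 611 TAF4b replicate 1 peaks that were intergenic and over 10 kb from a TSS, 452 (74.0%) overlapped a distal intergenic region, and in replicate 2 it was 20 of 26 (76.9%). An H3K4me3 replicate 1 region of any class overlapped 456 of the 611 and 21 of the 26, so the class largely follows from the shared rule. The share of all TAF4b peaks in any H3K4me3 region was not computed. Nothing particular to the distal intergenic regions is therefore read from the 74.0%. The 455 replicate 1 peaks in the regions had a median score of 10.4, against 15.4 for the other peaks of that list. Their centres lay a median of 136.5 bp from the region's centre, and 74.9% fell in its central 50%. Just 4 regions held 2 peaks.

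Regions with a TAF4b replicate 1 peak had a median score of 56.6 and a median size of 842 bp, against 37.3 and 648 bp without. Of them, 19.3% lay within 1 kb of an M39 start, against 12.2%. Of the 21 regions with a replicate 2 peak 9 did (42.9%), and the share was 42.7% over all H3K4me3 replicate 1 regions.

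Of the 15 regions with peaks in both TAF4b lists, 5 overlapped an M39 start, where 8.34% of distal intergenic and 33.3% of all H3K4me3 replicate 1 regions did. At Fos, which encodes an AP-1 transcription factor, the region at chr12:85501509-85502688 lay 18.566 kb upstream and scored 52.2. Its TAF4b peaks scored 37.7 in replicate 1, the highest of any peak in these regions, and 48.6 in replicate 2. It overlapped the start of the M39 lncRNA gene Gm60630, and its printed peak has both a CCAAT and a GC box match.

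The region 11.419 kb upstream of Lncppara scored 89.4, with TAF4b scores of 30.8 and 56.7, and overlapped the start of Gm56736. Its CpG ratio was 0.684, and its printed peak has 3 GC box matches. The region near Gm11809 scored 64.1 and had a CpG ratio of 0.970 with 128 CpG dinucleotides, and it held 2 replicate 1 peaks (18.9 and 13.4) and 1 replicate 2 peak (44.5). It covered the start of Gm42253. Both ratios were above the promoter median of 0.581.

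The other regions with both peaks had CpG ratios of 0.170 to 0.598. The region near Gm42489 had the highest H3K4me3 score of the 15, 110.3, with TAF4b scores of 24.3 and 97.2, the latter being the highest replicate 2 score in these regions. Its CpG ratio was the lowest, and it was 2779 bp from the closest M39 start, and its printed peak has 3 CCAAT matches and no GC box. Regions near Dyrk1a, a protein kinase gene (score 76, ratio 0.182), and Gm47986 (score 65.6, ratio 0.230) had low ratios too. The regions near Gm6989 (score 62.6), Sh3pxd2a (49.2), Fsip2 (59.6) and Gm8358 (38.8) had ratios of 0.349 to 0.420, above the median of 0.318 over all distal intergenic regions, and the first of them overlapped an M39 lncRNA start. Near Gm9923 (score 37.3) and Mir465 (32.8) the ratios were 0.598 and 0.590. The regions near Fsip2 and Gm29235, both among the 15, were repeated sequence, with 80.7% and 82.9% of words repeated. Of all 21 regions with a replicate 2 peak 9.52% were repeated, against 12.7% of distal intergenic regions. Words that recurred in the sequence groups were in 6 of the 21 replicate 2 peaks (28.6%).

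Motifs differed between TAF4b peaks in these regions and at promoters. CCAAT on either strand, the letters bound by NF-Y, was in 61.3% of the 455 peaks (56.8 to 65.7), against 37.9% of 5754 promoter-TSS peaks of the same width (36.7 to 39.2) and 39.5% of all 7852. The GC box GGGCGG, bound by SP family factors, was in 16.9% (13.8 to 20.6), against 56.9% at promoters and 48.5% of all. TATAAA was in 1.98% and 1.74%, and AGGGGGC, letters within the CTCF motif, in 3.52% and 11.8%. Peaks in distal intronic sequence had CCAAT in 46.3% and the GC box in 17.5%. The peak sets differ in base composition, and its part in these shares was not tested.

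In the central 200 bp of the regions themselves the contrast was smaller. CCAAT was in 32.3% of distal intergenic windows, against 30.4% of distal intronic, 27.2% of all and 23.4% of promoter regions, and in 46.1% of the 451 with a TAF4b replicate 1 peak. The GC box was in 7.92%, against 8.63%, 16.8% and 36.3% in the same order. TATAAA was in 8.11%, against 7.78%, 6.26% and 4.29%.

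The 5 groups of peaks with shared sequence held 176 of the 455 peaks (38.7%). They were found after the values had been seen and are given as a description. CCAAT was present in 55 of 70, 30 of 38, 21 of 24, 22 of 22 and 17 of 22 peaks of the groups in order, together 82.4%. Among the 279 peaks in no group it was in 48.0% (42.2 to 53.9), which is still above the 37.9% of promoter peaks. The GC box was in 6.25% of grouped and 23.7% of ungrouped peaks. The peaks of each group were spread over 13 to 18 chromosomes. In groups 1 and 2 the top-scoring peaks (26.8 and 19.9), near Fsip2 and Gm37068, had no CCAAT.

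Words that recurred in at least 3 peaks of a group marked more of the H3K4me3 list. The words were drawn from peaks in distal intergenic regions, so their frequency there is no finding. They occurred in 2191 distal intergenic regions (10.98%), 8.80% of distal intronic regions and 0.791% of promoter regions, and in 19 promoter-TSS peaks of TAF4b replicate 1 (0.330%). In distal intronic regions, which were not used to find the words, a TAF4b replicate 1 peak was present in 6.62% with the words (4.92 to 8.86) and 1.902% without (1.60 to 2.27). Promoter regions, also not used, went the other way, with 15.4% (9.70 to 23.5) in 104 regions with the words and 29.4% without, and over all regions the shares were 8.44% and 9.69%. The words and these peaks come from the same TAF4b library, so the intronic contrast is not independent of how the words were found. Of the distal intronic regions 50.4% with the words were repeated, against 5.24% without. A TAF4b replicate 2 peak was in 3 of 619 with the words and 3 of 6413 without. Of distal intergenic regions with the words 48.7% were repeated, against 8.28% of the others, which choosing words that recur largely fixes, and 4.79% were near an M39 start, against 13.3%.

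Single words from these groups also occurred outside the listed intervals. The most shared word was in 21 of 70, 17 of 38, 16 of 24, 12 of 22 and 7 of 22 peaks of the groups in order. An occurrence of it is therefore not a copy of the group's sequence. How reads with several matches were placed is not known, so an unlisted occurrence does not show that the mark was absent. The most shared word of group 1 occurred 2914 times on these chromosomes, and 33.8% of its occurrences lay in an H3K4me3 replicate 1 region and 1.51% in a TAF4b replicate 1 peak. For group 2 it was 342 occurrences with 27.8% and 16.7%, and for group 5 250 occurrences with 44.8% and 9.20%. The word of group 3 occurred 6707 times with 7.98% and 0.820%, and that of group 4 1873 times with 18.9% and 2.46%. Across the groups the share in TAF4b peaks thus ran from 0.820% to 16.7%, and the share in H3K4me3 regions from 7.98% to 44.8%.

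H3K4me3 replicate 2, which played no part in choosing the regions, overlapped 76 of them (0.381%, 0.304 to 0.476), against a background of 2.60% of all regions and 7.29% of promoter regions. The list is short, and from its side 75 of its 77 distal intergenic regions (97.4%) lay in one of replicate 1. All 77 overlapped a replicate 1 region of some class. Over all classes, 1685 replicate 1 regions overlapped its 1726 regions, and the share of those 1726 was not computed. The 97.4% is therefore not read as particular to distal intergenic regions. The 76 had a median score of 118.5 and a median size of 1293 bp, against 37.3 and 650 bp for the rest. Of them 13 (17.1%) held a TAF4b replicate 1 peak, against 2.26% of distal intergenic regions and 9.61% of all regions. An M39 start was near 25 (32.9%), against 12.4% and 42.7%. The highest replicate 2 score was 338.6, at Gm8178. No region was in all 3 other lists, which allows a share of up to 0.0150% (3 counts of 19951), while 99 of all H3K4me3 replicate 1 regions were, and 97.4% of distal intergenic regions were in none of the 3, against 97.35% of distal intronic regions and 88.6% of all regions.

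Between antibodies, the share of a list that was distal intergenic was 30.8% and 4.46% for H3K4me3 replicates 1 and 2, and 7.78% and 3.11% for TAF4b. The means were 17.6% ± 18.6 (SD, n = 2) and 5.45% ± 3.30 (SD, n = 2), a difference of 12.2 percentage points. By an exact permutation test, two-sided, p was 0.667, and 2 libraries against 2 allow none under 0.3333. H3K4me3 replicate 1 alone stood apart, by 26.3 points from its replicate, and without it the difference was -0.985 points.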

How the data were processed

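Intervals of 1 library each were used from the 4 H3K4me3 and TAF4b lists, with groups taken from sample titles. The peak score, distance to TSS, annotation class and coordinates are the authors' deposited values, and the score's normalization and the calling settings are not given in the sources used here. The size column of the H3K4me3 lists equals End minus Start, and the focus ratio, a fraction deposited for TAF4b peaks, was not used. Per the submitters' processing notes the tools were bcl2fastq 2.20, Trim Galore 0.5.0, FastQC 0.11.5, Bowtie2 2.3.0, SAMtools 1.9 and HOMER 4.10, with GRCm39. Per the file headers the H3K4me3 lists were annotated with Ensembl 103.

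The distal intergenic regions were selected from deposited columns. Genes were named through transcripts found in GENCODE M39. For 81.1% of the matched regions the deposited distance equalled, within 1 bp, the distance computed on GRCm39. Sequence came from that genome. Overlaps, chains, distances, 32-base words and sequence groups were computed with Python 3.11.15, numpy 2.4.6, pandas 2.3.3, scipy 1.17.1, pysam 0.24.0 and numba 0.67.0, and the functions were checked on simulated intervals and sequences. Regions are not replicates, so their shares and correlations carry no test. The 1 test, of list shares over libraries, was an exact permutation test. Depth is unknown.

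The regions, gene lists, motifs and rules were chosen with earlier results of these data known. Named regions were the 10 of highest score, up to 10 with peaks in both TAF4b lists, the 5 longest chains, the 10 genes nearest to most regions, up to 5 genes of each list, and those at the thresholds. The sequence groups, the regions around Tfap2c and a few other loci were picked after their values were seen. The sequence of group 3 is not reported here. Alternatives covered distance, size, score, overlap, gaps, M39 distance, repeated sequence and leaving out each library.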

Additional observations from a re-analysis of the deposited data

How the results depend on the processing

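Raising the distance to 50000 bp left 6913 regions, of which 1.95% overlapped TAF4b replicate 1 and 0.246% H3K4me3 replicate 2. In that set 26.9% lay within 10 kb of another region and 8.16% within 1 kb of an M39 start. With 5 kb the last 2 shares were 35.4% and 13.3%. The higher-scoring 50% of the list left 7525 regions, with shares of 3.89% for TAF4b replicate 1, 0.199% for TAF4b replicate 2, 0.957% for H3K4me3 replicate 2, 21.0% within 10 kb and 18.2% near an M39 start.

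Chosen after seeing the data, leaving out regions within 1 kb of an M39 start gave 0.0687% for TAF4b replicate 2, 0.292% for H3K4me3 replicate 2 and 30.03% within 10 kb. Leaving out repeated regions gave 13.6% near an M39 start. Other gaps gave 18.5% within 5 kb and 76.8% within 50 kb, and other distances gave 10.9% within 500 bp and 21.5% within 5 kb of an M39 start.

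The difference in list shares ran from -0.985 (reversed, without H3K4me3 replicate 1) to 25.3 points when each library was left out, and was 4.24 points at a distance of over 50000 bp. With a replicate block it was 12.2 points, 23.0 and 1.35 within same-numbered libraries, with an exact sign-flip p of 0.5. Pairing of the numbers could not be checked with 2 libraries per group. Of the recomputed values of the main results, 32, that one included, were classed as the same, 21 as moved and 1 as reversed. Same meant the same sign and call, or a move by less than the interval. Numbers of regions have no interval, and those classed as the same ran from 17413 to 23867, against 19951. Depth is unknown, replicate 2 lists are short, and IgG was not analysed here, so the background of the antibodies was not measured.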
